A study of Mus musculus with 6 samples.

Results

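The 9 genes described here handle retinol and retinal in the eye: Rlbp1, Rdh10, Rdh8, Rdh11, Rdh12, Dhrs3, Abca4, Rbp3 and Lrat. They were found by symbol among the 32285 genes that were counted, and all 9 were present. Light converts the cis-retinal of the visual pigments into all-trans-retinal, which photoreceptors reduce to retinol, and the pigment epithelium and Muller glia return it as a cis form that the pigments can bind again. Binding proteins carry the hydrophobic retinoids between these cells, and retinol dehydrogenases interconvert the alcohol and the aldehyde. In outer retinal disease this cycle is of interest because retinal that is not cleared is toxic to photoreceptors.

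The nuclei came from retinas of rd10 mice, strain B6.CXB1-Pde6b-rd10/J, which carry a mutation in the rod phosphodiesterase Pde6b and lose rods early in life. All animals of both groups therefore had the same degenerating background, and no wild-type or uninjected retina was analysed here. The saline group (replicates 1, 2 and 6) received vehicle and the IL-27 group (replicates 4, 5 and 10) received 20 ng of recombinant IL-27, a cytokine, by injection into the vitreous at P18. Retinas were collected at P20, so the comparison shows the state 2 days after a single dose, with 3 libraries in each group.

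The 6 libraries held 36678332 to 48260748 UMIs, and 48485 nuclei entered sums of 11 cell types named from marker genes. The named types were Muller glia (5305 nuclei), rods (15000), cones (3324), bipolar cells (BC, 9375), amacrine cells (AC, 10746), horizontal cells (HC, 485), retinal ganglion cells (RGC, 2055), microglia (1549), astrocytes (292), endothelial cells (237) and pericytes (117). Glul averaged 954 CPM in Muller glia, Arr3 averaged 4983 CPM in cones and Csf1r averaged 392 CPM in microglia. These genes are on the marker lists used for naming, so their levels are a description and no test of the names. Levels are in CPM, that is, the UMI count of a gene divided by all UMIs of its library and type, at the usual scale of that unit. The summed level of the 9 rod markers ranged from 8452 CPM in IL-27 replicate 5 to 10925 CPM in IL-27 replicate 10 in rods and from 247 to 628 CPM, in the same 2 libraries, in Muller glia. IL-27 replicate 10 stood apart from the other 5 libraries as the shallowest and, in rods and Muller glia, the richest in rod markers, so results that rest on it are given with and without it. Any 2 libraries shared 18 to 30 barcode sequences. Xist was high in 1 library of each group (saline replicate 2 and IL-27 replicate 5).

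Abca4, Rdh12, Rdh8 and Rbp3 were highest in photoreceptors, and Rlbp1 and Rdh10 in Muller glia. Promoters of members from both sets are shown because the levels below separate them. Rdh11, Dhrs3 and Lrat are placed in neither set. The 250 bases before the annotated start are given 5′ to 3′ on the strand of the gene, as RefSeq lists them for GRCm38.p6. Capitals mark GGATTA or its reverse complement TAATCC, the core of the site bound by the homeodomain factors CRX and OTX, searched on both strands.
Abca4, chr3:122044210-122044459, plus strand: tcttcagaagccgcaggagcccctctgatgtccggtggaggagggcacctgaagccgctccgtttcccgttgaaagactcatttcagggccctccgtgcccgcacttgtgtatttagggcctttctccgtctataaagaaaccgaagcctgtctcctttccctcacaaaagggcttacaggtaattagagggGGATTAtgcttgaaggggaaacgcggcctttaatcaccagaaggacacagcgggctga
Rbp3, chr14:33953753-33954002, plus strand: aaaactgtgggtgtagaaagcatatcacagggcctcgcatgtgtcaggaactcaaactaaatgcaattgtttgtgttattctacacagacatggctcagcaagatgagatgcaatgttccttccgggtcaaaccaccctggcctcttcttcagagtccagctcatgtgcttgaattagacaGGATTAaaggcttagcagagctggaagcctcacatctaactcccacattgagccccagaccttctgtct
Rdh12, chr12:79208663-79208912, plus strand: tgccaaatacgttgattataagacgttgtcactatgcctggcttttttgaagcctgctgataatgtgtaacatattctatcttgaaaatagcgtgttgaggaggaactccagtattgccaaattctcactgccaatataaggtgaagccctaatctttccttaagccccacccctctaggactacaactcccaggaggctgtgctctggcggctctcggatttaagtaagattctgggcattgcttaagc
Rlbp1, chr7:79387028-79387277, minus strand: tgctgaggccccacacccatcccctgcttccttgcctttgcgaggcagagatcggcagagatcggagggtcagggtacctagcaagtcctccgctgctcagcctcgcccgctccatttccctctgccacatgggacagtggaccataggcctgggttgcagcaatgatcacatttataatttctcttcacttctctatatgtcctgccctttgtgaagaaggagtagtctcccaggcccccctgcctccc
The core was present in the windows of Abca4 and Rbp3, that is, in 2 of the 8 members that the promoter table holds, counted per gene. Of all 32851 promoter windows of that length, 2054 (6.25%) had it. That background is counted per window, and Rdh11 and Dhrs3 have several windows each. No window of Rdh8, Rdh11, Rdh12, Dhrs3, Lrat or Rlbp1 held these letters. Rdh10 was the 1 member without an entry. The matches are a description of the sequence and no binding was measured.

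In GRCm38, Rdh11 (chr12:79174337-79192293, minus strand) and Rdh12 (chr12:79208914-79222665, plus strand) are neighbours with 16620 bases between them. The other members lie apart, with Rlbp1 at chr7:79374870-79387048, Rdh10 at chr1:16105774-16133734, Abca4 at chr3:122044443-122180123 and Rbp3 at chr14:33954003-33964216. Lrat (chr3:82892579-82903973, minus strand) is overlapped by Rbm46os on the plus strand, so its few reads are uncertain wherever strand was not counted. Positions are from GENCODE M21, and 99.8% of the gene identifiers in the files were found there.

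Rlbp1 encodes CRALBP, the protein that binds cis-retinoids in Muller glia and pigment epithelium. Its level in Muller glia was 346, 294 and 333 CPM after saline and 368, 290 and 220 CPM after IL-27. The mean was 309 ± 52.9 CPM (SD, n = 6), 3.99 times the 77.4 CPM of rods, and the 2 types did not overlap in any library. A Rlbp1 UMI was found in 64.3% of Muller nuclei (exact binomial 95% interval 63.0 to 65.6%). The share was 9.17 to 10.9% in rods, cones, BC, AC, HC, RGC and microglia, although their median depth ran from 1285 UMIs in rods to 9898 in HC. The order of these types in CPM is therefore not read as an order of expression.

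Rdh10, which oxidizes retinol to retinal, was also highest in Muller glia, at 244 ± 63.1 CPM (SD, n = 6). Astrocytes followed at 85.8 ± 27.7 CPM, 2.84 times lower, and no library of the 2 types overlapped. Astrocytes, pericytes (62.9 CPM) and rods (62.5 CPM) overlapped in range. A Rdh10 UMI was found in 54.0% of Muller nuclei, 28.4% of astrocyte nuclei and 7.94 to 8.14% of microglia, cone and rod nuclei. The other types lay between, from 8.86% in endothelial cells and 11.3% in AC to 18.2% in RGC. These shares are not adjusted for depth, which had a median of 1285 UMIs in rods and 9493 in RGC. Rlbp1 and Rdh10 were thus the pair of members led by Muller glia, and across the 66 sums of library and type their log2(CPM + 1) had a Pearson r of 0.77, as a description over sums that share libraries and depth.

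**Figure D1:**
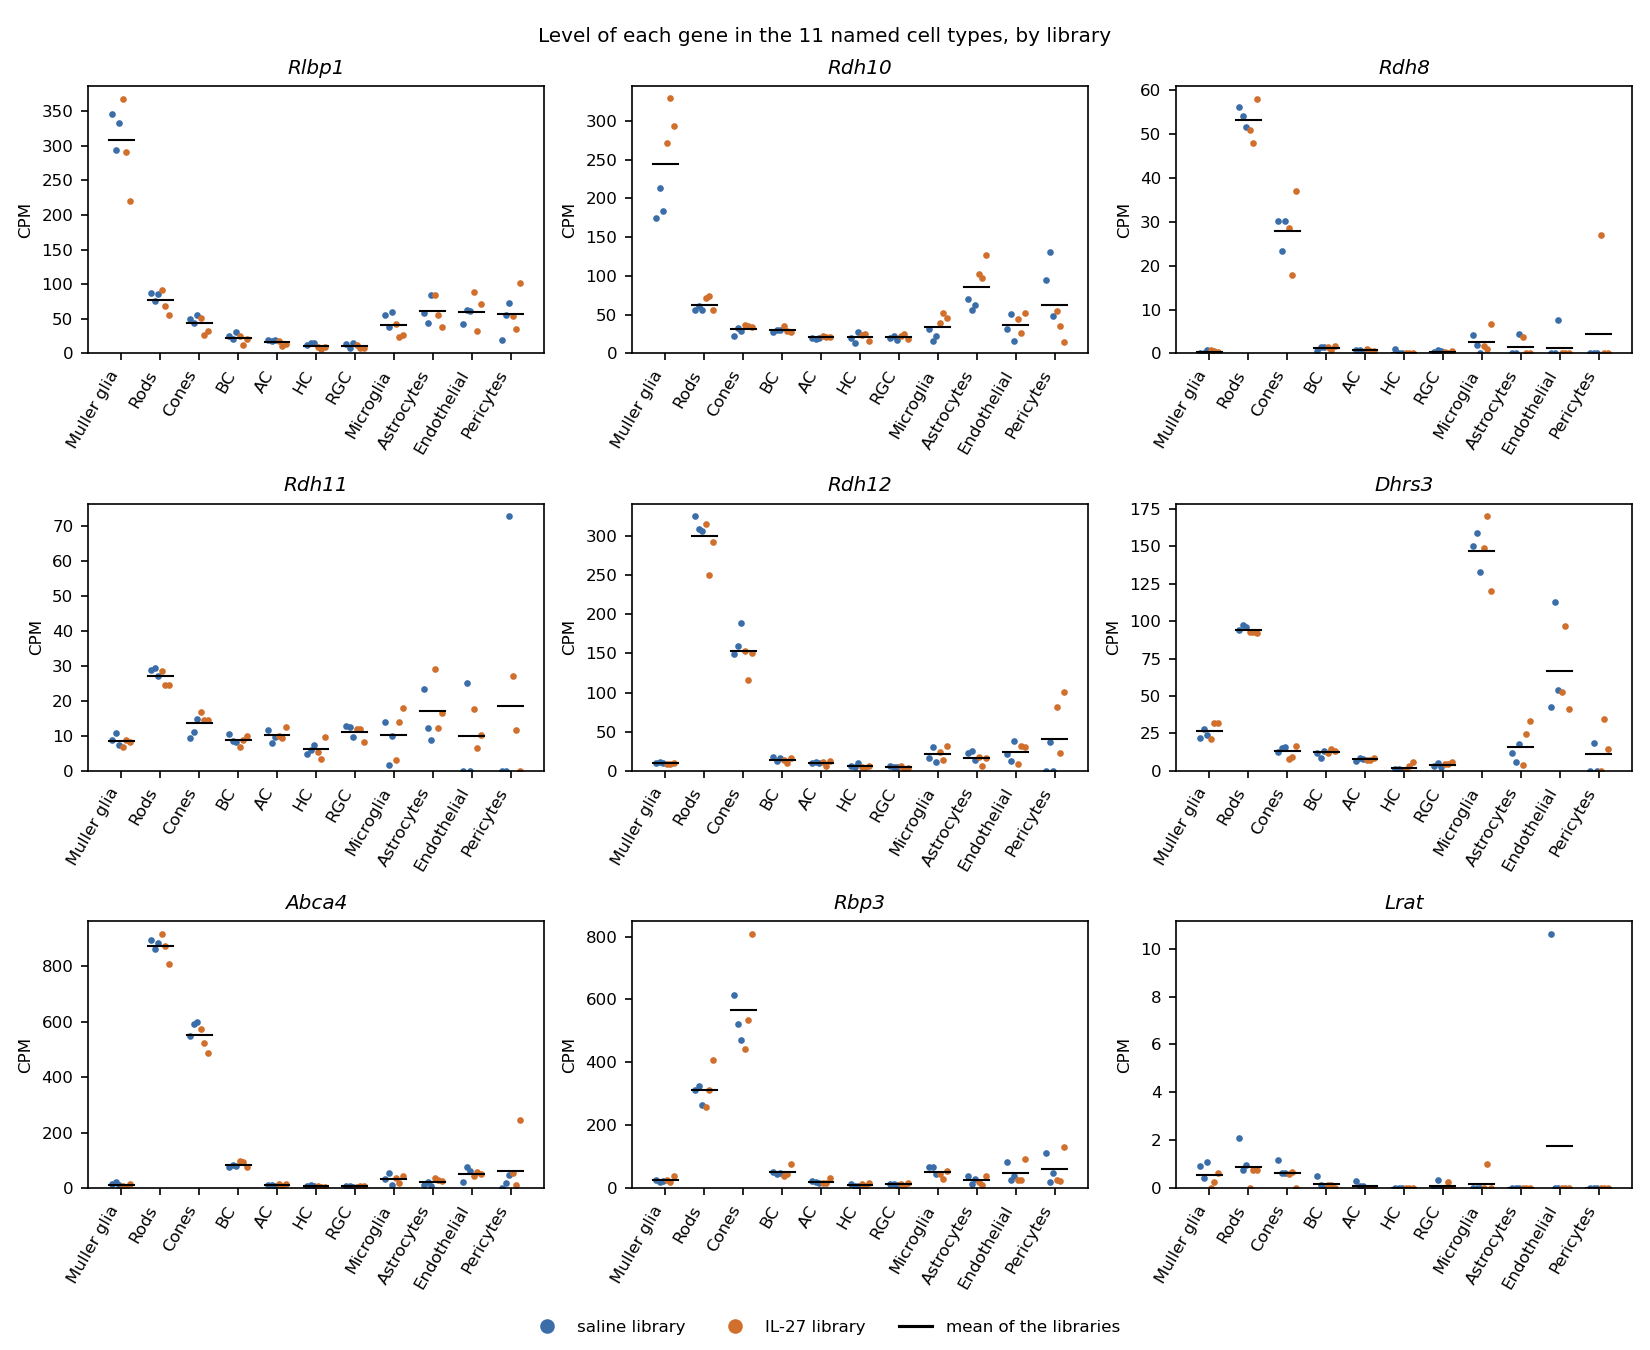
Level of each member in CPM in the 11 cell types, each panel on its own linear axis from 0. Points are single libraries, colours give saline or IL-27, and lines are the mean of the libraries. Rlbp1 and Rdh10 are highest in Muller glia, Abca4, Rdh12 and Rdh8 in rods, Rbp3 in cones and Dhrs3 in microglia, while Lrat averages at most 1.77 CPM in any type.

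Abca4, the transporter that clears retinal adducts from photoreceptor discs, was a photoreceptor gene here. It averaged 874 ± 36.6 CPM (SD, n = 6) in rods and 555 ± 43.0 CPM in cones, and the lowest rod library (809 CPM) lay above the highest cone library (601 CPM). BC followed at 84.6 ± 8.86 CPM, 6.56 times below cones. This BC sum leaves out an unnamed cluster of 991 nuclei, with BC as its best class, that held 333 CPM. In Muller glia Abca4 averaged 13.98 CPM, 1.60% of the rod level, below the median of 4.13% that 9 rod markers kept there.

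Rdh12, the photoreceptor dehydrogenase whose loss causes early blindness in people, averaged 299 ± 26.8 CPM in rods and 153 ± 23.5 CPM in cones (SD, n = 6), a ratio of 1.96 with no overlap. Its share of nuclei with a UMI was close in the 2 types, 31.8% and 31.0%, at median depths of 1285 and 2555 UMIs. After thinning every nucleus to 1000 UMIs, which left out 3704 rod and 46 cone nuclei below that depth, the shares were 24.9% and 13.6%. Rdh8, which reduces all-trans-retinal in outer segments, had the same order, with 53.2 ± 3.74 CPM in rods and 27.9 ± 6.58 CPM in cones, and averaged 4.50 CPM or less elsewhere.

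Rbp3 encodes the interphotoreceptor carrier IRBP, and it was the 1 member highest in cones. Cones held 565 ± 133 CPM and rods 313 ± 54.2 CPM (SD, n = 6), and their ranges (442 to 809 and 257 to 408 CPM) did not overlap. IL-27 replicate 10 set the highest value in both types, and it was the library richest in rod markers in rods but not in cones. Rbp3 also left 8.17% of the rod level in Muller glia, within the range of 0.846 to 13.1% over the rod markers.

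Rdh11, a broadly expressed dehydrogenase, was low in every type. Rods had 27.2 ± 2.24 CPM (SD, n = 6), and the next types, pericytes (18.6 CPM) and astrocytes (17.1 CPM), overlapped with them. The lowest rod library (24.5 CPM) lay above every library of cones, RGC, AC, microglia, BC, Muller glia and HC, of which cones averaged 13.6 CPM and HC 6.14 CPM. The Muller level was 31.4% of the rod level. A Rdh11 UMI was found in 3.69% of rod, 3.67% of cone, 3.71% of Muller and 10.3% of RGC nuclei. These shares did not follow the CPM order, at median depths of 1285 UMIs in rods and 9493 in RGC. That order alone is therefore not read as an order of expression. After thinning as for Rdh12, the shares were 2.66, 1.28, 0.756 and 1.17%, highest in rods. The part of background RNA in them was not tested.

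Dhrs3, which reduces retinal to retinol and limits retinoic acid formation, was highest in microglia. The microglial libraries held 150, 159 and 133 CPM after saline and 149, 170 and 120 CPM after IL-27. The mean of 147 ± 18.0 CPM (SD, n = 6) was 1.56 times the 94.2 ± 2.11 CPM of rods without overlap, and rods overlapped with endothelial cells (66.7 ± 30.5 CPM). A Dhrs3 UMI was found in 27.4% of microglia, 12.1% of rods, 10.1% of Muller nuclei and 3.10% of cones. Cones, at 13.0 ± 3.76 CPM, lay below rods in every library, the same order as for Rdh8 and Rdh12.

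Lrat, the acyltransferase that makes retinyl esters in the pigment epithelium, was barely detected in the neural and glial types. All retained nuclei together held 73 Lrat UMIs, and no type averaged over 1.77 CPM. Horizontal cells, astrocytes and pericytes had 0 UMIs, and 0 of 485 HC nuclei allows a share of up to 0.619% of nuclei with a UMI.

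Genes with the most similar pattern were named by Pearson correlation of log2(CPM + 1) over the same 66 sums, among 12572 genes that reached 20 CPM in at least 1 type. These values describe a ranking over sums that share libraries and depth. Rlbp1 was followed by the Muller genes Glul (r 0.91), Abca8a (0.89) and Crym (0.88). For Rdh10 the leading genes were Slmap (0.88), Itgb8 (0.85) and Gldc (0.82). Abca4 was followed by Rpgrip1 (0.97) and Impg2 (0.94), Rdh12 by Cdhr1 (0.92), Prph2 (0.92) and Rhot1 (0.92), and Rbp3 by Sag (0.93), Unc119 (0.92) and Hmgn1 (0.91). Rdh8 had Supt16 (0.90), Frmpd2 (0.88) and Kdm4c (0.88), and Dhrs3 had Rpl23 (0.85), Hltf (0.84) and Lin9 (0.83). Rdh11 had lower values, with Tbl3 (0.75), Uqcrfs1 (0.68) and Vps37c (0.68), and Lrat was too low to be ranked.

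The effect of IL-27 was then tested per cell type on the summed counts with edgeR's quasi-likelihood test and Benjamini-Hochberg adjustment over all genes of that type, where a gene was called at an adjusted p under 0.05. Of 99 pairs of member and type, 55 passed the filter on low counts, and these include no pair from endothelial cells or pericytes and none for Lrat. No pair was called. The background was 8 of 107927 tests, or 0.00741%, over the 11 types. At an unadjusted p under 0.05 there were 6 member pairs, 3 higher and 3 lower with IL-27, among 4537 of all tests (4.20%). The log2 fold changes (log2FC, IL-27 over saline) ran from -0.83 to 0.97, with 26 above and 29 below 0. No treatment difference of a member therefore passed adjustment in the main test, and the values below are given with that limit.

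**Figure D2:**
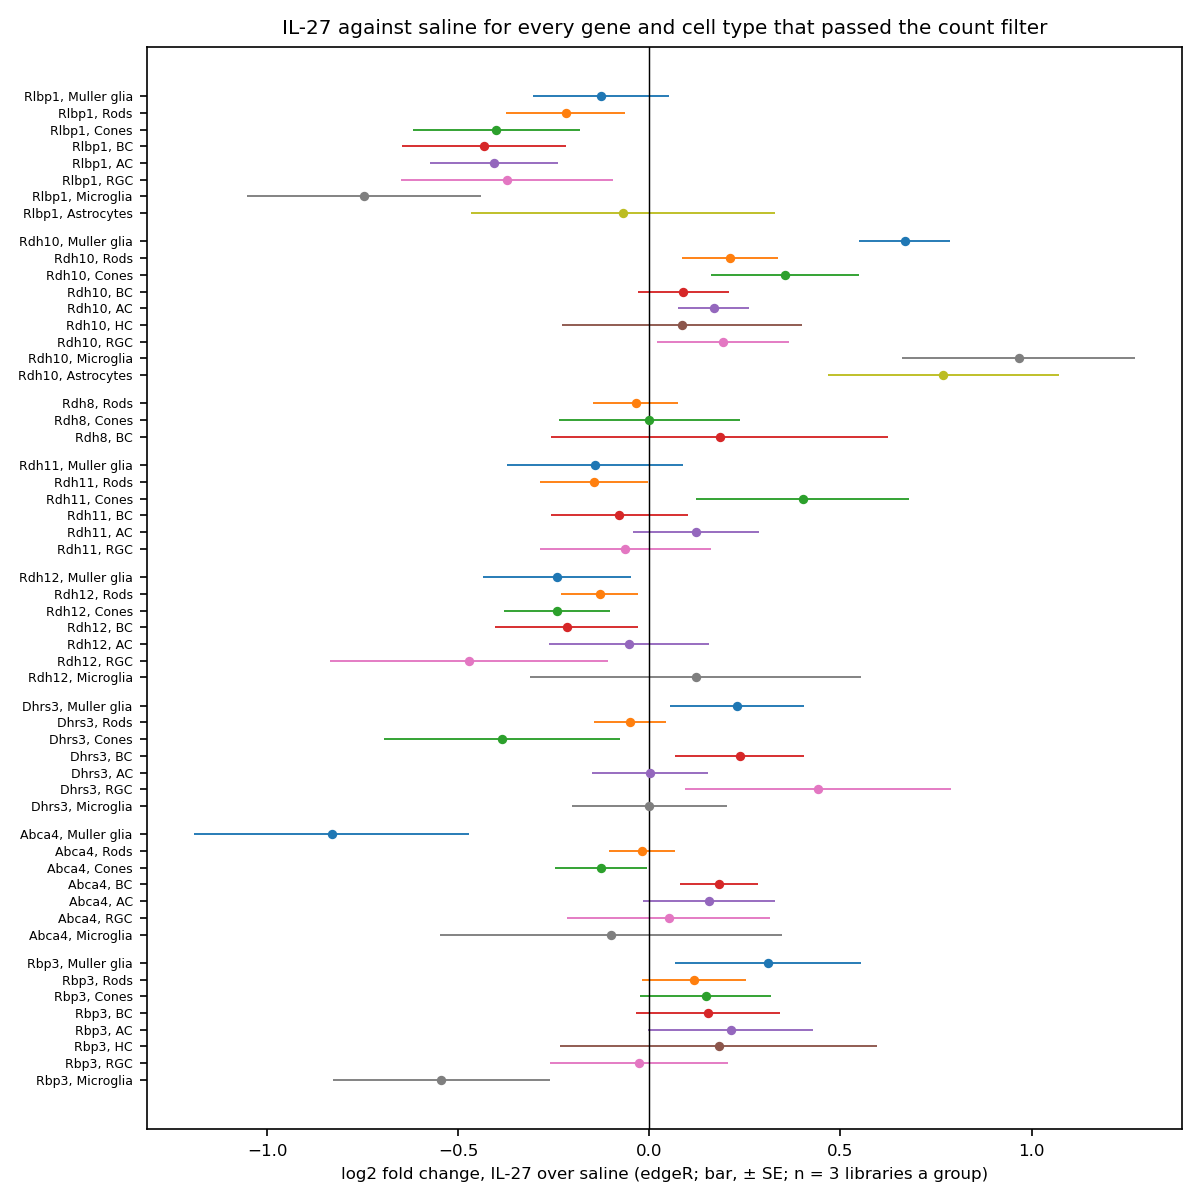
Log2 fold change, IL-27 over saline, of each member in each cell type where it passed the filter on low counts, with bars of 1 standard error from the edgeR fit. Rdh10 lies above 0 in all 9 types tested and Rlbp1 below 0 in all 8, and no value passed an adjusted p of 0.05.

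Rdh10 in Muller glia was the member difference nearest to the threshold. The saline libraries had 175, 213 and 183 CPM and the IL-27 libraries 272, 329 and 294 CPM. Every IL-27 library lay above every saline library, which 5.66% of all genes tested in Muller glia did in this direction. The means were 190 ± 20.1 and 298 ± 29.0 CPM (SD, n = 3 each), a log2FC of 0.67 (SE 0.12) or 1.59-fold, with an adjusted p of 0.0914 in edgeR, where 5 of 13963 genes (0.0358%) were called.

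The call on Rdh10 changed with the tool, the filter on low counts and 1 library. DESeq2, which also applied its own filter, called it (log2FC 0.66, adjusted p = 0.00104) among 97 of 15631 genes (0.621%), and edgeR without the filter on low counts called it (adjusted p = 0.00220) among 354 of 24015 genes (1.47%). Without IL-27 replicate 10 the log2FC was 0.70 with an adjusted p of 0.00757, in a fit that called 398 of 14246 genes (2.79%). With another library left out the adjusted p was up to 0.506, and the log2FC stayed between 0.58 and 0.75 over all 6 such fits.

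Muller glia were clustered again into 3 larger sub-clusters and a smaller cluster enriched in saline libraries, and their shares varied between libraries. Sub-cluster 1, where Rdh10 was lowest, made up 37.5, 27.8 and 46.4% of Muller nuclei after saline and 41.7, 26.9 and 12.0% after IL-27. Sub-cluster 0 made up 24.2, 30.4 and 25.3% after saline and 23.5, 49.6 and 52.3% after IL-27, so the groups overlapped in both. Sub-cluster 2, where Rdh10 was highest (350 CPM over the 6 libraries), made up 18.4, 20.0 and 17.2% after saline and 33.0, 22.7 and 23.3% after IL-27, without overlap. Within sub-cluster 1 the Rdh10 level was 130, 161 and 124 CPM after saline and 199, 265 and 218 CPM after IL-27. The groups did not overlap there, with a log2FC of 0.75 and an adjusted p of 0.0458, in a fit that called 11 of 10788 genes (0.102%). In sub-clusters 0 and 2 the log2FC was 0.42 and 0.45, and the 3 IL-27 libraries also lay above the 3 saline libraries, without a call. The sub-clusters are parts of the same 6 libraries, so they are not replicates of one another. The share of all genes without overlap was not counted within sub-clusters. Over all Muller glia it was 5.66% in this direction. Leaving out the saline-enriched cluster gave a log2FC of 0.60 and an adjusted p of 0.206 with edgeR, and 0.0126 with DESeq2, which then called 19 of 15813 genes (0.120%).

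**Figure D3:**
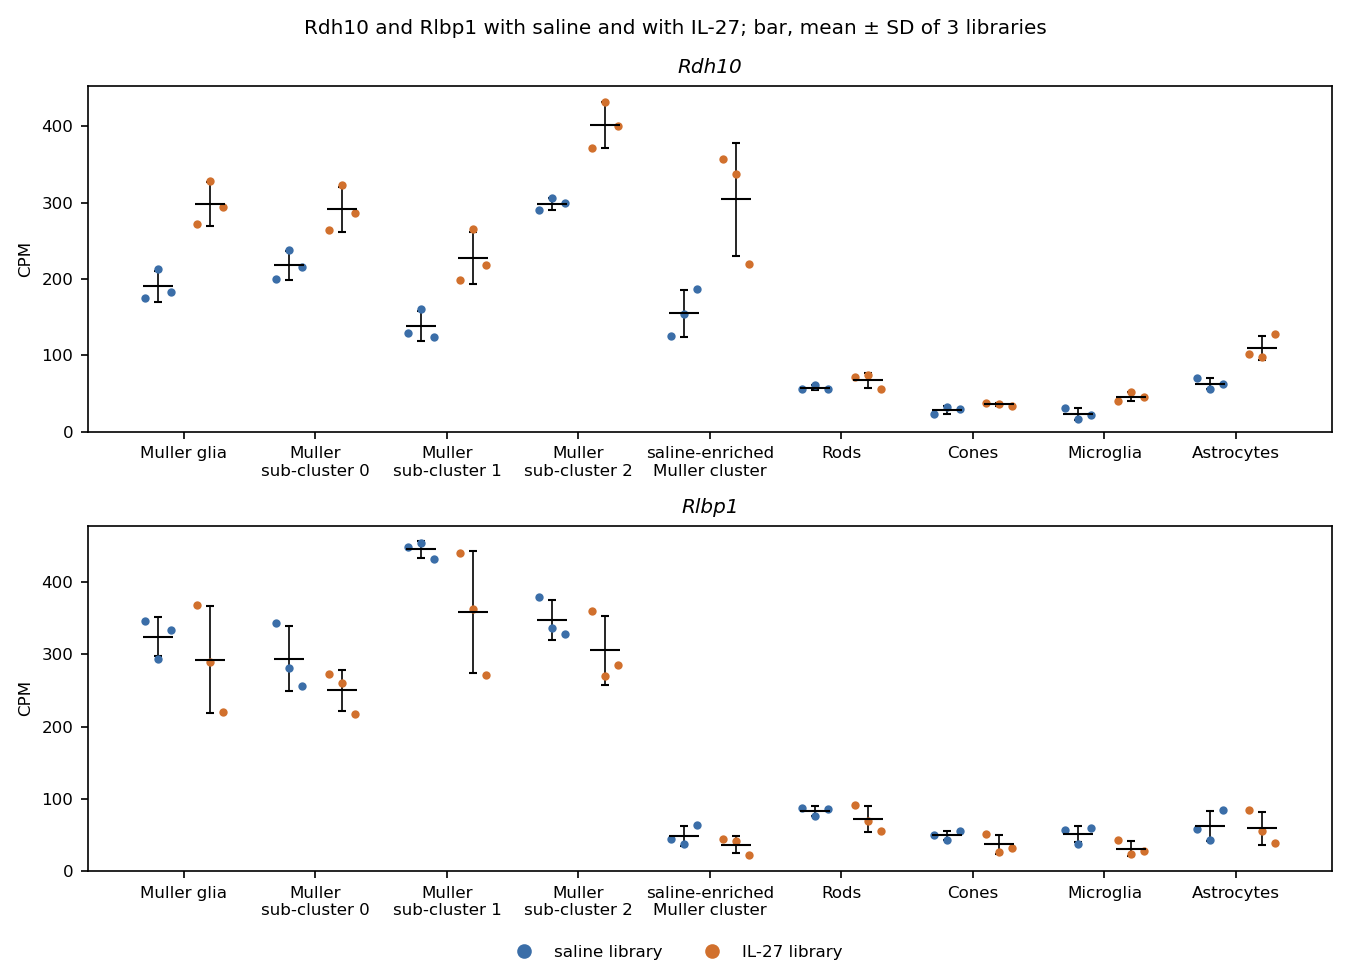
Level of Rdh10 and Rlbp1 in CPM per library in Muller glia, its sub-clusters, the saline-enriched cluster, rods, cones, microglia and astrocytes, with bars of the mean ± SD of the 3 saline or 3 IL-27 libraries. Rdh10 is higher in each IL-27 library than in each saline library in all 3 sub-clusters, and Rlbp1 overlaps between groups in Muller glia. The sub-clusters come from the same libraries, and the share of all genes without overlap was not counted in them. The point of IL-27 replicate 5 in the saline-enriched cluster rests on 6 nuclei.

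Outside Muller glia the Rdh10 log2FC was above 0 in each of the 8 other types tested. All types come from the same 6 libraries, so the signs are not independent and their number is no test. Microglia had 30.9, 16.3 and 21.8 CPM after saline and 39.6, 52.1 and 45.3 CPM after IL-27, a log2FC of 0.97 (SE 0.30, edgeR adjusted p = 0.9997). Astrocytes had 70.0, 55.8 and 62.1 CPM and 102, 97.8 and 127 CPM, a log2FC of 0.77 (SE 0.30, edgeR adjusted p = 0.985). Groups without overlap, higher with IL-27, were found for 4.56% of genes in microglia, 4.60% in astrocytes, 3.98% in cones and 3.63% in AC, and Rdh10 was among them in all 4 types. The cone log2FC was 0.35 and the AC log2FC 0.17. The share of microglia with a Rdh10 UMI, 7.94%, was no higher than that of rods, and the part of background RNA in the microglial difference was not tested.

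Rlbp1 gave the opposite sign in every type in which it was tested, which is again no test over types. In Muller glia the log2FC was -0.13 (SE 0.18, adjusted p = 0.916) and the groups overlapped. Without IL-27 replicate 10, which had the lowest Rlbp1 level of the 6 libraries, it was 0.06. Without the saline-enriched cluster it was -0.30 (edgeR adjusted p = 0.960). The values passing an unadjusted p of 0.05 were in microglia (log2FC -0.75) and AC (log2FC -0.41), types in which 9.17% and 9.57% of nuclei had a UMI, beside 9.88% of rods. Of the 10 Muller markers, 6 of 9 tested were lower in microglia (median log2FC -0.08) and 7 of 10 in AC (median -0.01), none called, and their part in the Rlbp1 values was not tested.

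Abca4 and Dhrs3 in Muller glia depended on which of the nuclei named Muller glia were summed. Abca4 had 16.6, 23.4 and 13.4 CPM after saline and 9.79, 4.48 and 16.2 CPM after IL-27, a log2FC of -0.83 (SE 0.36, edgeR adjusted p = 0.523). With 1 library left out it ran from -1.31 without IL-27 replicate 10 (edgeR adjusted p = 0.0711) to -0.47 without IL-27 replicate 5 (edgeR adjusted p = 0.702). Without the saline-enriched cluster the log2FC was 0.32, with the opposite sign (edgeR adjusted p = 0.979). Dhrs3 had a log2FC of 0.23 over all Muller glia and of 0.60 without that cluster (SE 0.18, edgeR adjusted p = 0.852). Neither was called in either set of nuclei. The summed level of the 9 rod markers in Muller glia was 431 to 489 CPM after saline and 247 to 628 CPM after IL-27, with IL-27 replicate 5 lowest, and its part in the Abca4 value was not tested.

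In photoreceptors no member was called. In rods the log2FC was -0.22 for Rlbp1, -0.02 for Abca4, -0.13 for Rdh12, 0.12 for Rbp3, -0.04 for Rdh8, -0.15 for Rdh11 and 0.21 for Rdh10, each with an edgeR adjusted p of 0.9996. Abca4 in rods had 894, 864 and 883 CPM after saline and 918, 875 and 809 CPM after IL-27. Dhrs3 in rods showed groups without overlap, lower with IL-27, as 4.07% of genes in rods did, with 94.2, 97.3 and 96.1 CPM against 92.9, 92.8 and 91.9 CPM. That difference was small (log2FC -0.05, edgeR adjusted p = 0.9996).

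In cones the log2FC was -0.13 for Abca4, -0.24 for Rdh12, 0.15 for Rbp3, -0.00 for Rdh8, -0.40 for Rlbp1, -0.39 for Dhrs3 and 0.40 for Rdh11, beside 0.35 for Rdh10. All 9 rod markers were lower in cones after IL-27 (median log2FC -0.38, none called), against 6 of 9 in rods (median -0.09). Their summed level in cones was 3817 to 4356 CPM after saline and 2739 to 4076 CPM after IL-27, and its part in the cone values was not tested. Rbp3 turned to -0.10 in cones and -0.07 in rods without IL-27 replicate 10. The difference of the IL-27 effect between cones and rods was tested within libraries, where 4 of 13060 genes (0.0306%) and none of the members were called. The member values, cones minus rods, ran from -0.33 for Dhrs3 to 0.54 for Rdh11 (SE 0.29, edgeR adjusted p = 0.9997).

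A list of 25 other genes of retinol and retinal handling gave 77 of 275 pairs that passed the filter, and none was called with edgeR. In them 31 log2FC values were above and 46 below 0, with a median of -0.06, beside a median of -0.00 over the member pairs. At an unadjusted p under 0.05 in edgeR there were 3 of the 77 pairs, all higher with IL-27. Over all genes and types 4537 of 107927 tests (4.20%) passed that limit, so the count is not read as a result about these genes. Rdh5, Retsat and Degs1 in Muller glia had log2FC values of -0.07, -0.16 and -0.07, and Rpe65 and Rgr did not pass the filter in any type.

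The saline-enriched Muller cluster held 12.1% of the nuclei named Muller glia and had a distinct member profile. It made up 19.9, 21.8 and 11.1% of Muller nuclei after saline and 1.76, 0.728 and 12.3% after IL-27, so that IL-27 replicate 10 lay within the saline range. The comparison with the other Muller nuclei of the same library is a description, because the cluster was drawn from the same nuclei, and it uses the 5 libraries with at least 10 nuclei in the cluster, among which IL-27 replicate 4 had 14. Rlbp1 averaged 42.4 ± 15.04 CPM in the cluster and 346 ± 61.5 CPM in the other nuclei (SD, n = 5), lower in 5 of 5 libraries. Over all 6 libraries, the 10 Muller markers kept a median of 36.0% of the Muller level in the cluster. They ran from 13.1% for Abca8a to 152% for Vim, and Rlbp1 kept 13.7%. In the first clustering, a cluster of 686 nuclei led by Fbln1, Fam129a and Fbn2 was named Muller glia with no Muller marker among its leading genes. It met the marker rule with 7 markers and a mean z of 1.21, against 10 and 3.92 in the larger Muller cluster. Whether these nuclei are Muller glia beyond that rule was not tested.

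Rdh10 was closer between the cluster and the rest. Its mean was 208 ± 90.1 CPM in the cluster and 233 ± 52.7 CPM in the other nuclei, higher in 2 and lower in 3 of 5 libraries. At double the clustering resolution it was 127 against 228 CPM and lower in 4 of 4 libraries, so this value depended on the clustering resolution. Dhrs3 was higher in the cluster in 5 of 5 libraries, at 64.2 ± 16.5 against 20.4 ± 4.42 CPM.

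Abca4 averaged 71.5 ± 41.7 CPM in the cluster and 6.98 ± 1.90 CPM in the other nuclei (SD, n = 5), higher in 4 of 5 libraries. In the fifth, IL-27 replicate 4, no Abca4 UMI was found in 14 nuclei, which allows a level of up to 66.9 CPM. An Abca4 UMI was found in 22.7% of the nuclei of the cluster and 2.92% of the other Muller nuclei. Outside photoreceptors the share was 19.1% in BC, 8.44% in endothelial cells and 8.55% in pericytes. It was 4.91 to 5.89% in microglia, astrocytes, AC, HC and RGC. Over all 6 libraries, the rod markers kept a median of 6.86% of the rod level in the cluster, Abca4 6.82% and Rdh12 4.13%. In the other Muller nuclei the rod markers kept a median of 3.92%, Abca4 0.752% and Rdh12 3.37%. The part of rod RNA in the Abca4 level was not tested. Rdh12, also a rod gene, had no UMI in IL-27 replicate 4 either, with the same limit. In the other 4 libraries it averaged 8.02 CPM (2.92 to 11.1 CPM) in the cluster and 10.97 CPM (10.3 to 12.1 CPM) in the other nuclei, and no direction is read from these few UMIs.

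**Figure D4:**
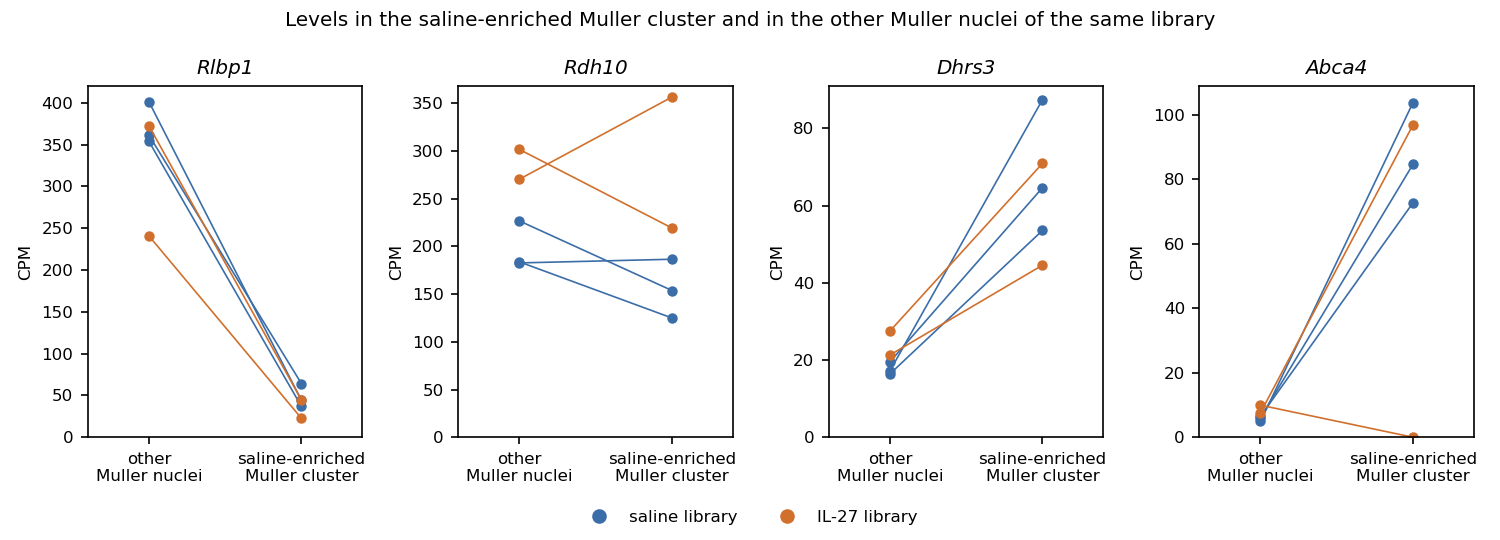
Level of Rlbp1, Rdh10, Dhrs3 and Abca4 in CPM in the saline-enriched Muller cluster and in the other Muller nuclei, joined by library, for the 5 libraries with at least 10 nuclei in the cluster. Rlbp1 is lower in the cluster in every library (mean 42.4 against 346 CPM), Dhrs3 is higher in every library and Abca4 is higher in 4 of 5.

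The level of Lrat was high in a few pigmented nuclei, while most of its UMIs lay elsewhere. No cluster met the marker rule for pigment epithelium, but 18 retained nuclei held UMIs of at least 3 of 10 pigment genes. They were 0.0345% of the nuclei and held 11 of the 73 Lrat UMIs (15.1%), a level of 154 CPM (exact Poisson 95% interval 76.7 to 275 CPM, counting error only). These UMIs were in 7 of the 18 nuclei. Nuclei with exactly 2 of the markers had 3.05 CPM, and nuclei with under 2 held 60 UMIs, a level of 0.270 CPM. The 18 nuclei came from saline replicate 1 (3 nuclei), saline replicate 6 (10), IL-27 replicate 4 (1) and IL-27 replicate 10 (4), and no treatment comparison was made.

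Some of the same nuclei held UMIs of the epithelial arm of the cycle, whose genes were not used to select them. Rpe65, the isomerase that makes the cis form, stood at 2947 CPM, Rgr at 950 CPM and Rdh5 at 475 CPM, over all 18 nuclei. Their UMIs were in 7, 8 and 9 of the nuclei, so 11 had no Rpe65 UMI. Among the members, Rlbp1 and Rdh10 each stood at 265 CPM and Abca4 at 251 CPM, with intervals of 160 to 414 CPM and 149 to 397 CPM. Rbp3, a photoreceptor gene, stood at 126 CPM. Rdh8 and Rdh11 had 0 UMIs, which allows up to 41.9 CPM.

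**Figure D5:**
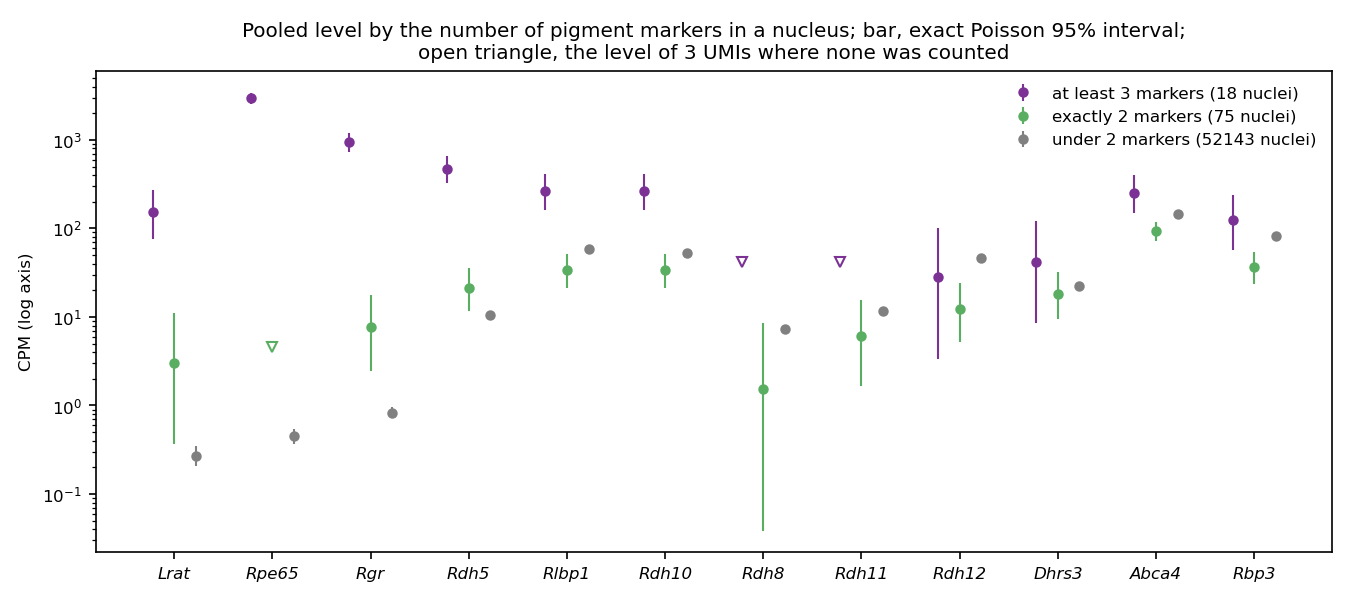
Level in CPM on a log scale, with exact Poisson 95% intervals, of the members and of genes of the epithelial cycle in the 18 nuclei with at least 3 pigment markers and in nuclei with fewer, pooled over libraries. Open triangles give the level of 3 UMIs where none was counted. Lrat stands at 154 CPM in the pigmented nuclei and 0.270 CPM in nuclei with under 2 markers.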

How the data were processed

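Single-nucleus libraries of rd10 retinas were made with a 10x 3′ kit, and the study's methods give 3 mice per group with 1 eye injected. The deposited values are raw UMI counts per gene and barcode, which the authors made with Cell Ranger (version 8.0.1 in the matrix headers, 9.0.1 in the submitters' processing notes, with Seurat 5.2.1 also named there). The genome build is not given in the sources used here. UMI counts come from the 3′ ends of transcripts, so levels were compared between cell types and not between genes. The members, the lists and the tests were chosen with earlier results of these data known.

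Of 56634 barcodes, 56205 passed limits of over 500 UMIs, 200 genes or more, and mitochondrial counts below 5%. Scrublet in scanpy 1.11.5 removed 3969 doublets, for an 8% rate corrected for homotypic pairs, and left 52236 nuclei, with a median of 2782 to 3788 UMIs per library. Louvain clustering (igraph 0.11.9, resolution 0.25, no integration) used log-normalized counts of 2000 variable genes, members and retinoid list left out, with 25 components and 20 neighbours. Clusters were named where at least 3 markers of a class were found in 10% of nuclei with a mean z over 0.3, a limit set after the clusters were seen. A cluster also went unnamed where its 10 leading genes held more markers of another class than of its own. The naming left 4 of 34 clusters (2718 nuclei) unnamed. A second clustering of Muller nuclei used 4000 variable genes and 10 components, and 136 nuclei with high rod markers were set aside. The saline-enriched cluster was the one with the highest mean of 4 genes named for it by the study.

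Counts were summed per library and type, without nuclei whose log2 UMI total lay over 2 median absolute deviations from its median, and tested with edgeR 4.0.16 (R 4.3.3, TMM, filterByExpr at 10 counts, quasi-likelihood, Benjamini-Hochberg per type, threshold 0.05). Cones and rods were compared in 1 fit with the library as a block. DESeq2 1.42.0 was an alternative. Named genes are the members, retinoid-list genes chosen by name or called, and the 3 genes most correlated with each member, and some of these are not reported here. Intervals and zero limits (3 counts) cover counting error only. The nuclei of a library are not replicates, and p-values compare the group difference with the variation between libraries that each fit estimated. Other tools were Python 3.11.15, numpy 2.4.6, scipy 1.17.1, pandas 2.3.3, scikit-learn 1.9.0 and matplotlib 3.10.9.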

Additional observations from a re-analysis of the deposited data

How the results depend on the processing

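Levels, fold changes and counts were recomputed under DESeq2, other scalings, no filter or a filter of 50 counts, all nuclei, doublets kept, a 1% mitochondrial limit, a resolution of 0.5, Xist as a covariate, Muller glia without the saline-enriched cluster and each library left out. Chosen after the data were seen were fits within Muller sub-clusters, DESeq2 and left-out libraries without the saline-enriched cluster, and pigmented nuclei with exactly 2 markers.

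Rdh10 in Muller glia kept its direction in all 27 alternatives (log2FC 0.42 to 0.75). It was called, as the 1 member called in Muller glia, with DESeq2 (0.66), with no filter (0.66), without IL-27 replicate 10 (0.70), with DESeq2 without the saline-enriched cluster (0.60) and within sub-cluster 1 (0.75), and in no other. Leaving out 1 library gave 0.58 to 0.75, with adjusted p-values of 0.00757 to 0.506 and 0 to 1 members called. With no filter 1 gene of the retinoid list was called in Muller glia.

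Signs turned for Abca4 in Muller glia without the saline-enriched cluster (0.32 with edgeR and 0.32 with DESeq2). With 1 library left out as well, the values were 0.42, 0.21 and 0.34 without saline replicates 1, 2 and 6 and 0.013, 0.59 and 0.31 without IL-27 replicates 4, 5 and 10. At the 1% limit Dhrs3 in rods turned to 0.0060. With 1 library left out at a time, and the sign turned only without IL-27 replicate 10, the log2FC ran from -0.33 to 0.057 for Rlbp1 in Muller glia, from -0.076 to 0.036 for Abca4 in rods, from -0.074 to 0.25 for Rbp3 in rods and from -0.10 to 0.31 for Rbp3 in cones. For Rdh8 in rods it ran from -0.11 to 0.021, the last without IL-27 replicate 5. None of these was called, and the cause was not tested. Levels moved by over 1 SD for Abca4 in rods at the 1% limit (912 CPM) and Dhrs3 in microglia with doublets kept (124 CPM). Lrat with exactly 2 pigment markers (3.05 CPM) lay outside the Poisson interval of the pigmented nuclei. The other 167 recomputed levels, 364 fold changes and 373 counts stayed on the same side. At the 1% limit no endothelial or pericyte cluster was named, so neither has a value.

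No paired analysis was possible because the replicate numbers of the groups, 1, 2 and 6 against 4, 5 and 10, share none. Depth limits Lrat, which passed the filter in no type, and the endothelial and pericyte sums, where no member passed the filter.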

Other observations

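Members also differed among clusters within types, which were picked after their values were seen and given without a test. Abca4 reached 228 CPM (142 to 293 CPM over 6 libraries) in a BC cluster of 1216 nuclei whose leading genes include Erbb4, Cabp5 and Scgn, while BC as a whole averaged 84.6 CPM. A cluster of 991 nuclei that took no cell type name, with Cntn5, Gabrr3 and Cngb3 among its leading genes, held 333 CPM of Abca4 (287 to 374 CPM). BC was its best class, with 8 BC markers and a mean z of 0.802. It went unnamed because its leading genes held the cone marker Cngb3 and no BC marker, so the BC mean leaves it out. At a resolution of 0.5 a cluster of 997 nuclei led by Cntn5, Adarb2 and Gabrr3, as this one was, took the name BC. Rbp3 reached 150 CPM (134 to 176 CPM) in another BC cluster of 1082 nuclei, in which Abca4 was at 44.1 CPM. An AC cluster of 831 nuclei held 53.7 CPM of Dhrs3, beside 7.69 CPM in AC as a whole.

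Outside the members, also named after their values were seen, Rrh, the opsin peropsin, averaged 181 ± 12.8 CPM in Muller glia and 8.07 ± 1.44 CPM in rods (SD, n = 6). Stra6l, a retinol-binding protein receptor, averaged 49.6 ± 18.3 CPM in microglia and 0.331 CPM in Muller glia. Neither passed adjustment between saline and IL-27 with edgeR in any type.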
